A study of Mus musculus with 9 samples.

Results

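The immediate early and heat shock genes described here are 33 of the 55487 genes with a count in each library. They were chosen by symbol from known gene families, 24 as immediate early genes and 9 as heat shock genes, and each symbol matched 1 gene ID. The RNA came from monocytes sorted from C57BL/6 spleens, in 3 groups of 3 libraries each. The groups were Ly6Clo monocytes of Cebpa +37-/- mice (KO Ly6Clo), Ly6Clo monocytes of wild-type mice (WT Ly6Clo) and Ly6Chi monocytes of wild-type mice (WT Ly6Chi). All were untreated, the labels give no age, and KO denotes homozygous loss of an element named by its place relative to Cebpa, the gene of the myeloid transcription factor C/EBP-alpha. The labels number the replicates 1 to 3 in each group without saying what a number marks or that the libraries came from separate animals. The p-values therefore refer to the spread among these 9 libraries, some of which may be technical.

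Immediate early genes are transcribed within minutes of a stimulus without prior protein synthesis, mostly through kinase cascades that act on factors already bound at their promoters. Many encode transcription factors such as FOS and JUN, and others encode inhibitors that end the response, among them phosphatases of MAP kinases and proteins that degrade mRNA. In leukocytes they are also known to be induced by tissue dissociation and sorting. Heat shock genes encode chaperones and are induced by unfolded protein through the factor HSF1.

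The promoters are shown for 8 genes on which the results turn: the 5 immediate early genes whose level differed by replicate number, Zfp36l1, which had the largest fold change between wild-type monocyte subsets, and the near-identical pair Hspa1a and Hspa1b. Each is 300 bases, from 250 before to 50 after the start that RefSeq gives on GRCm38.p6, 5′ to 3′ on the strand of the gene. For Dusp1, Atf3 and Zfp36 that start lies inside the longer gene span of the GENCODE annotation given further on. Capitals mark letters matching a cAMP response element (CRE, TGACGTCA), its partial form TGACG, an AP-1 site (TGANTCA), a CArG box, or a pair of heat shock units facing each other (GAANNTTC or TTCNNGAA), each searched on both strands.
Dusp1 (chr17:26508423-26508722, minus strand): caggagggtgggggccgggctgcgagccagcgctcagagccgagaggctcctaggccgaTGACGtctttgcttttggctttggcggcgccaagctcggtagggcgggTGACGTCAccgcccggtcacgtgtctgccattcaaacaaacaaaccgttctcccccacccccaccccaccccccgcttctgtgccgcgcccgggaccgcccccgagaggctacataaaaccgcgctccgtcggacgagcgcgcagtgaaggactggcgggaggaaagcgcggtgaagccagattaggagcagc
Ppp1r15a (chr7:45526219-45526518, minus strand): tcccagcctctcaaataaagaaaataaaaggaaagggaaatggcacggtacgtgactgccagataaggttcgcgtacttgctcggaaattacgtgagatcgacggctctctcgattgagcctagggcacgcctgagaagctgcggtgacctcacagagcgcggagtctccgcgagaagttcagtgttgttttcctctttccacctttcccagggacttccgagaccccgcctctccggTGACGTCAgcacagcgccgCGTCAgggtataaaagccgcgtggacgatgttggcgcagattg
Fosb (chr7:19309996-19310295, minus strand): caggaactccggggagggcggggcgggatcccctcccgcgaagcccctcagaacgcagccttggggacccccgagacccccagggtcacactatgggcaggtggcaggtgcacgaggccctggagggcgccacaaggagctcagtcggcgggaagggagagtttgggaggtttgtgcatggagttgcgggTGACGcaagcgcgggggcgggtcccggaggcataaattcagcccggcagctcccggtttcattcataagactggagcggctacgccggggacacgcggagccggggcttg
Atf3 (chr1:191183284-191183583, minus strand): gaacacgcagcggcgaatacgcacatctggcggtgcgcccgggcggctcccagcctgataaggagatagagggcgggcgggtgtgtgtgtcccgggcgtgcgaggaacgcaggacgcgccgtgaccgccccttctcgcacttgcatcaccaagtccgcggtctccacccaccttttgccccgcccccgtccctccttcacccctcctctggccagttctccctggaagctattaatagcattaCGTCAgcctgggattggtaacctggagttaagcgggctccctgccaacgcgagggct
Zfp36 (chr7:28379179-28379478, minus strand): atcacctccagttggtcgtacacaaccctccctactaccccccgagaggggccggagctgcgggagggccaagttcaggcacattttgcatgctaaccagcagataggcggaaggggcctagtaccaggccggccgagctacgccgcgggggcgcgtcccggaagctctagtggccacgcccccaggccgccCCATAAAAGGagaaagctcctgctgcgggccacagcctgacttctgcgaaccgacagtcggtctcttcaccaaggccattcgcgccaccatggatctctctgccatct
Zfp36l1 (chr12:80112964-80113263, minus strand): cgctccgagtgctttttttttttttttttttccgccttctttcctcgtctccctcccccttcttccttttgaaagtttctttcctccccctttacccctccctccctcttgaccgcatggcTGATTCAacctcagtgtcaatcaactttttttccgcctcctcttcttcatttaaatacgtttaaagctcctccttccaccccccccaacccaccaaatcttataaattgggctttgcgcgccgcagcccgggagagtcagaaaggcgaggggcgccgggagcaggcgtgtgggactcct
Hspa1a (chr17:34972107-34972406, minus strand): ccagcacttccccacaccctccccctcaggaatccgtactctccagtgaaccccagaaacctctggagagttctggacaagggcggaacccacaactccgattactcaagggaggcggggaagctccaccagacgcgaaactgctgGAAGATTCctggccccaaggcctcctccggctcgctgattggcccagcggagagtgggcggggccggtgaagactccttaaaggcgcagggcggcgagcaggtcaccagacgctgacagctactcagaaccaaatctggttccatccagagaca
Hspa1b (chr17:34959189-34959488, minus strand): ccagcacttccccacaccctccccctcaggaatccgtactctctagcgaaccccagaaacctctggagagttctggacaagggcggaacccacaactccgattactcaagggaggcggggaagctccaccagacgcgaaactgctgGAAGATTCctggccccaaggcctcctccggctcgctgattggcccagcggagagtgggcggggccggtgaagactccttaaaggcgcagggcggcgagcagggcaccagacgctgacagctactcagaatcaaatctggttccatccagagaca

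Some of the letters differed between the families. TGACG, the form that also lies within each full CRE, was in 15 of 27 promoters of immediate early genes (55.6%). It was in 4 of 10 promoters of heat shock genes (40.0%), against 20.81% of all 32851 promoters of the same length. By gene it was in 12 of 21 and 4 of 7, so TGACG did not set the families apart. Of the 5 genes that differed by replicate number, 4 held it, and Dusp1 and Ppp1r15a held the full CRE. The full CRE was in 4 of the 27 (14.8%; Btg2, Dusp1, Maff and Ppp1r15a) and 1.79% of all promoters. The CArG box, bound by serum response factor, was in 6 of 27 (22.2%) and 1.63% of all. By gene it was in 3 of 21 (Dusp5, Egr2 and Zfp36), since overlapping Egr2 promoters hold the same site. In the heat shock promoters GAANNTTC was in 7 of 10 (70.0%) and TTCNNGAA in 4 of 10 (40.0%), against 7.86% and 8.52% of all, and in 7.4% and 3.7% of immediate early promoters. The AP-1 letters were in 1 of 27 immediate early promoters, that of Zfp36l1, and 7.81% of all. Some genes have several promoters that overlap, Hspe1 and Hspd1 share 1 region read in opposite directions, and a match is a description of letters only. The table gave a promoter for 28 of the 33 genes, and Egr1, Egr3, Ier2, Hspa8 and Hsp90aa1 had none in it. The promoters of Hspa1a and Hspa1b differed at 4 of 300 positions.

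The libraries held between 48.1 and 173.7 counts in units of 1000000, and the deepest were those numbered 2 of both Ly6Clo groups. Levels are counts per 1000000 on TMM-scaled library sizes (CPM) unless TPM, which is scaled by gene length, is named. A level of 3 counts was 0.0173 to 0.0623 CPM before scaling, and such floors cover counting error only. Cebpa was at 2.74 to 4.04 CPM in KO Ly6Clo, 17.7 to 19.2 CPM in WT Ly6Clo, against 31.5 to 51.6 CPM in WT Ly6Chi libraries. Ly6c2, which encodes the antigen of the sort, was at 2.14 to 3.84 CPM in KO Ly6Clo, 2.22 to 5.33 CPM in WT Ly6Clo, against 862 to 1063 CPM in WT Ly6Chi. The Ly6Clo marker Treml4 was at 1170.0 to 1211 CPM in KO Ly6Clo, 1439 to 1841 CPM in WT Ly6Clo, against 148 to 398 CPM in WT Ly6Chi. WT Ly6Chi replicate 3 stood apart by its sex-linked genes, with 30.0 CPM of Xist and 0 CPM of Ddx3y, while the others had at most 0.0417 CPM of Xist and 69.4 to 142 CPM of Ddx3y. A gene is called when edgeR's quasi-likelihood test gives a Benjamini-Hochberg adjusted p under 0.05 over the 18341 genes that passed a filter on low counts. Of the 33 genes 32 passed that filter, all but Hspb1, a small heat shock protein at 0 to 0.0701 CPM.

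In each group the immediate early genes were low in the library numbered 1 and high in those numbered 2 and 3. Their score, the mean of log2(CPM + 1) over the 24 genes, was 5.26, 8.0 and 7.49 in KO Ly6Clo replicates 1, 2 and 3. It was 5.69, 8.45 and 7.41 in WT Ly6Clo and 4.98, 7.28 and 7.31 in WT Ly6Chi. The libraries numbered 1 lay together below all others, whatever the genotype or subset. The same genes took 0.388, 1.83 and 1.79% of the counts in KO Ly6Clo, 0.487, 3.01 and 1.81% in WT Ly6Clo and 0.295, 2.10 and 2.13% in WT Ly6Chi. The heat shock score was 5.88, 6.09 and 5.43 in KO Ly6Clo, 5.68, 6.15 and 5.57 in WT Ly6Clo and 4.78, 5.46 and 5.41 in WT Ly6Chi. It was highest in the library numbered 2 of each group, lowest in number 3 of both Ly6Clo groups and lowest in number 1 of WT Ly6Chi.

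**Figure D1:**
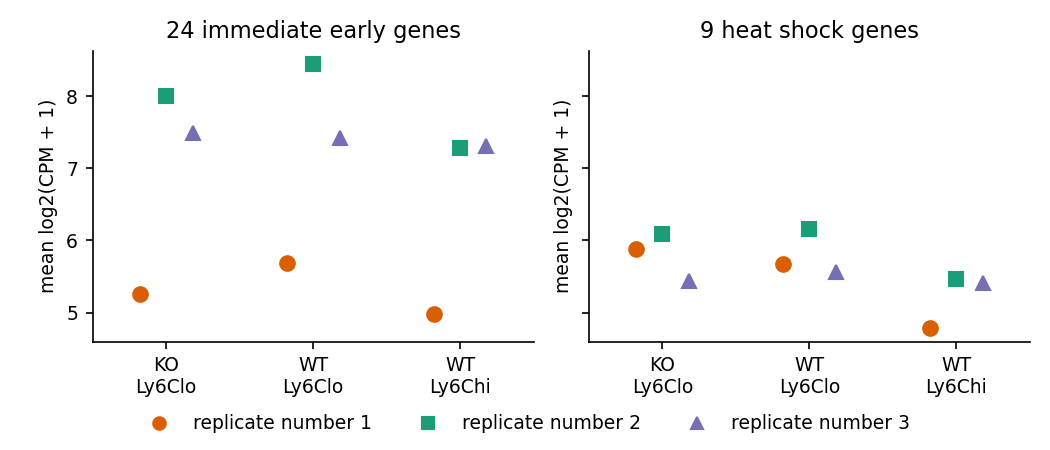
The score, the mean of log2(CPM + 1), of the 24 immediate early genes (left) and the 9 heat shock genes (right) in each library, with groups on the horizontal axis and 1 point per library coloured by replicate number. The immediate early score lies between 4.98 and 5.69 in the libraries numbered 1 and between 7.28 and 8.45 in the others, whereas the heat shock score shows no such step in the Ly6Clo groups.

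Across genes the replicate number called 5 of the 24 immediate early genes and 0 of the 8 heat shock genes tested, against 0.0818% of all genes (15 of 18341). The 5 were Fosb, Dusp1, Zfp36, Atf3 and Ppp1r15a, which the text takes up by family. The unadjusted p was under 0.05 for 21 of the 24 immediate early genes, 1 of the 8 heat shock genes and 2305 genes in all (12.6%). Of the 24, 20 were lowest in the library numbered 1 in all 3 groups, against 11.0% of all genes tested and 0 of 8 heat shock genes. The exceptions were Egr2, Egr3, Maff and Rhob. The median log2 ratio of number 2 over number 1, fitted with group as a term, was 2.498 for the immediate early genes, 0.16 for the heat shock genes and -0.01 for all genes. That of number 3 over number 1 was 1.88, -0.00 and 0.00. Every one of the 24 ratios was positive in both. The highest library was number 2 for 21 of the 24 in KO Ly6Clo, 22 in WT Ly6Clo and 10 in WT Ly6Chi, and number 3 for the rest. The number accounted for a median of 89.9% of the variation within groups for the immediate early genes, 54.2% for the heat shock genes and 43.0% for all genes, where its share of the degrees of freedom is 33.3%.

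These calls rest on few libraries. Between 0 and 5 of the 24, and 0 to 10 of all genes, were called when 1 library was left out. All 5 were called without WT Ly6Clo replicate 3, Fosb and Dusp1 without KO Ly6Clo replicate 3, and Zfp36 alone without WT Ly6Chi replicate 3, the library with the different sex-linked genes. None was called without any 1 of the other 6 libraries or within the 6 Ly6Clo libraries, where edgeR adjusted p was 0.22 to 0.28 for the 5 genes. DESeq2 called 22 of the 32 genes, Hspa1a and Hspa1b among them, against 10.5% of all genes (1508), and limma-voom called 10, against 0.305% (56).

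**Figure D2:**
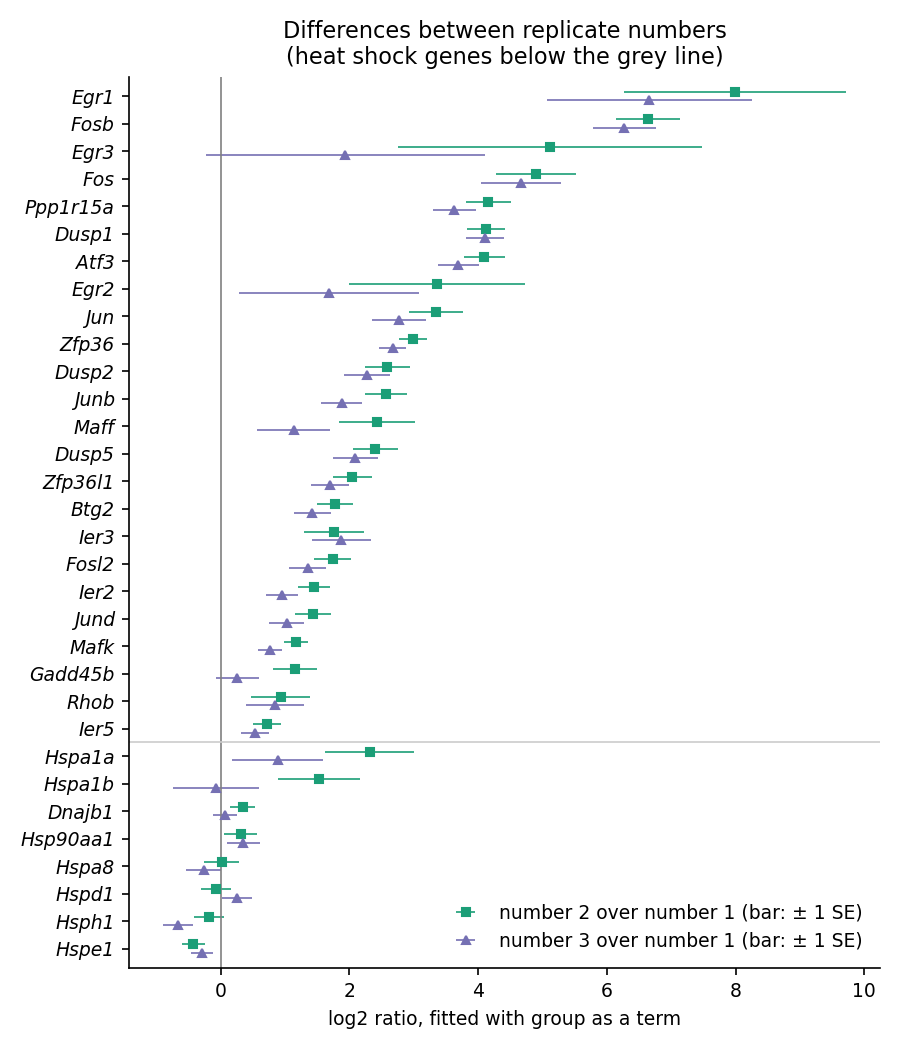
Fitted log2 ratio of replicate number 2 (squares) and number 3 (triangles) over number 1 for the 32 genes tested, with bars of ± 1 standard error and heat shock genes below the grey line. All 24 immediate early genes lie right of 0, with number 2 over 1 lowest in Ier5 (0.71), number 3 over 1 lowest in Gadd45b (0.26) and both highest in Egr1 (7.99 and 6.66), while the heat shock genes lie on both sides.

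The AP-1 factor is a dimer of FOS and JUN proteins. Fos had 18.9, 1917 and 1776 CPM in KO Ly6Clo replicates 1, 2 and 3, 136, 3820.3 and 2248 CPM in WT Ly6Clo, against 328, 4352 and 4968 CPM in WT Ly6Chi. Each library numbered 1 was far below its group, and the groups overlapped. The log2 ratio was 4.90 (SE 0.63) for number 2 over 1 and 4.66 (SE 0.62) for number 3 over 1 (edgeR adjusted p = 0.13, not called). Fosb, a close relative of Fos (ENSMUSG00000003545, chromosome 7, 19302696 to 19310051, minus strand, GRCm38), had 0.310, 34.0 and 13.6 CPM in KO Ly6Clo, 0.0733, 14.4 and 16.0 CPM in WT Ly6Clo, against 0.930, 64.8 and 63.2 CPM in WT Ly6Chi. It was close to absent in every library numbered 1 and differed by number, with log2 ratios of 6.64 (SE 0.50) and 6.27 (SE 0.49) and an edgeR adjusted p = 0.032.

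The ratios of the JUN partners were smaller than those of Fos and Fosb. Jun had 73.3, 476 and 392 CPM in KO Ly6Clo, 98.0, 957 and 372 CPM in WT Ly6Clo, against 13.6, 255 and 222 CPM in WT Ly6Chi. Junb, which encodes a JUN protein of weaker activating capacity, had 692, 2526 and 1666 CPM in KO Ly6Clo, 611, 5025 and 1962 CPM in WT Ly6Clo, against 566, 4006 and 3642 CPM in WT Ly6Chi. In both genes the library numbered 1 was the lowest of each group. Jund, the JUN gene known for steady expression, had 86.8, 151 and 123 CPM in KO Ly6Clo, 80.4, 257 and 142 CPM in WT Ly6Clo, against 36.8, 136 and 127 CPM in WT Ly6Chi. Its log2 ratios over number 1 were 1.43 and 1.02, against 3.34 and 2.77 for Jun and 2.57 and 1.88 for Junb. Fosl2, a FOS relative, ran from 37.2 to 126 CPM in KO Ly6Clo, 43.7 to 141 CPM in WT Ly6Clo, against 24.6 to 107 CPM in WT Ly6Chi. None of these 4 was called by number.

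Of the zinc finger factors of the EGR family, Egr1 had the largest ratios of the 24 genes. Egr1, which lies downstream of MAP kinase and serum response factor, had 0.0466, 229 and 190.4 CPM in KO Ly6Clo, 0.917, 1117 and 132 CPM in WT Ly6Clo, against 4.06, 77.8 and 96.9 CPM in WT Ly6Chi. In KO Ly6Clo replicate 1 it was at the level of 3 counts. Its fitted log2 ratios were 7.99 (SE 1.72) and 6.66 (SE 1.59), with wide errors and an edgeR adjusted p = 0.25. Egr2 had 0.124, 15.4 and 8.39 CPM in KO Ly6Clo, 1.16, 26.7 and 4.64 CPM in WT Ly6Clo, against 2.49, 5.11 and 1.14 CPM in WT Ly6Chi, so number 1 was not the lowest in WT Ly6Chi. Egr3 did not exceed 6.21 CPM in any library.

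Atf3, a CREB-family factor induced by stress (ENSMUSG00000026628, chromosome 1, 191170296 to 191218039, minus strand), had 16.7, 423 and 359 CPM in KO Ly6Clo, 56.6, 885 and 418 CPM in WT Ly6Clo, against 61.7, 816 and 828 CPM in WT Ly6Chi. The 3 libraries numbered 1 were below the other 6 without overlap. Its log2 ratios were 4.10 (SE 0.33) and 3.69 (SE 0.32), and it differed by number (edgeR adjusted p = 0.034). Its promoter, shown above, holds the letters CGTCA, the reverse complement of TGACG, just before the RefSeq start.

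**Figure D3:**
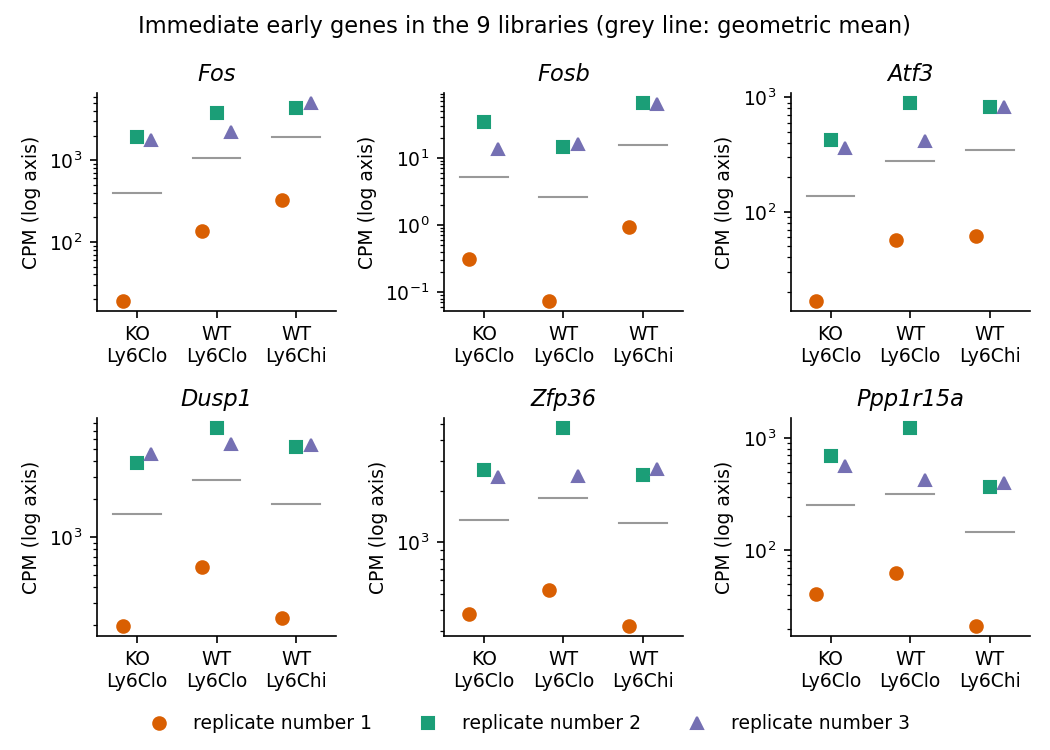
Level in CPM, on a log axis that differs between panels, of Fos and the 5 immediate early genes called by replicate number in the 9 libraries, with a grey line at each geometric mean. In every panel the orange circles of the libraries numbered 1 lie below the squares and triangles of their group, for example at 16.7 against 423 and 359 CPM for Atf3 in KO Ly6Clo.

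Genes of inhibitors that end signalling were among the most abundant of the 33. Scaled by length, Dusp1 had the highest median over the 9 libraries (4659 TPM), followed by Junb (3463 TPM), Fos (2619 TPM), Zfp36 (2250.2 TPM) and Ier2 (2107 TPM). Dusp1 encodes a nuclear phosphatase of MAP kinases (ENSMUSG00000024190, chromosome 17, 26505590 to 26562128, minus strand). It had 197, 3891 and 4564 CPM in KO Ly6Clo, 581, 7320.0 and 5474 CPM in WT Ly6Clo, against 227, 5164 and 5341 CPM in WT Ly6Chi. All libraries numbered 2 or 3 were above all numbered 1, with log2 ratios of 4.12 and 4.10 (SE 0.29 each; edgeR adjusted p = 0.032). Of the variation of Dusp1 within groups, the number accounted for 98.3%, the most among the 33 genes.

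The related phosphatases were not called by number. Dusp2 had 105, 455 and 487 CPM in KO Ly6Clo, 149, 1014 and 395 CPM in WT Ly6Clo, against 32.6, 239 and 272 CPM in WT Ly6Chi. Dusp5, which acts on nuclear ERK, had 276, 1659 and 1319.8 CPM in KO Ly6Clo, 504, 1568 and 1094 CPM in WT Ly6Clo, against 34.0, 305 and 274 CPM in WT Ly6Chi. Number 1 was the lowest of each group for both, and number 2 was the highest of each group for Dusp5.

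Zfp36 encodes tristetraprolin, which directs AU-rich mRNAs to decay (ENSMUSG00000044786, chromosome 7, 28376784 to 28380253, minus strand). It had 382, 2684 and 2419 CPM in KO Ly6Clo, 524, 4701 and 2446 CPM in WT Ly6Clo, against 323, 2507 and 2694 CPM in WT Ly6Chi. The libraries numbered 1 did not overlap with the rest (log2 ratios 2.99 and 2.67, SE 0.22 each, edgeR adjusted p = 0.032). Ppp1r15a encodes GADD34, which recruits a phosphatase to the translation factor eIF2 (ENSMUSG00000040435, chromosome 7, 45522916 to 45526268, minus strand). It had 41.1, 687 and 560.3 CPM in KO Ly6Clo, 62.9, 1218 and 421 CPM in WT Ly6Clo, against 21.3, 367 and 392 CPM in WT Ly6Chi. It differed by number too, with log2 ratios of 4.16 (SE 0.34) and 3.63 (SE 0.34) and an edgeR adjusted p = 0.036.

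None of the remaining immediate early genes was called by number. Ier2, Ier3 and Ier5, named for their immediate early response, had log2 ratios of number 2 over 1 of 1.45, 1.76 and 0.71. Ier5, a regulator of HSF1, had the smallest ratio of number 2 over 1 of the 24 genes, with 328, 468 and 384 CPM in KO Ly6Clo, 323, 591 and 373 CPM in WT Ly6Clo, against 148, 249.5 and 318 CPM in WT Ly6Chi. Btg2, an antiproliferative cofactor of mRNA deadenylation, had 545, 1434 and 1155 CPM in KO Ly6Clo, 644, 2484 and 1208 CPM in WT Ly6Clo, against 279, 1119.6 and 1298 CPM in WT Ly6Chi. The small MAF factors Maff and Mafk, the stress gene Gadd45b and the GTPase gene Rhob had log2 ratios of 2.43, 1.17, 1.15 and 0.93. Maff was scarce, at 0.512 to 11.9 CPM, while Mafk ran from 71.3 to 229.6 CPM. Rhob was an exception among the 24 in WT Ly6Clo, with 24.9 CPM in the library numbered 2 against 37.7 CPM in number 1.

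Other immediate early genes outside the 24 moved in the same way. Of 23 tested, 17 were lowest in number 1 in all 3 groups, against 11.0% of all genes. The median log2 ratios of the 23 were 2.33 and 1.68, against -0.01 and 0.00 over all genes. By number 1 of the 23 was called, against 0.0818% of all genes. The 1 called by number was the clock gene Per1, at 7.20, 92.5 and 64.4 CPM in KO Ly6Clo, 18.6, 113 and 88.3 CPM in WT Ly6Clo, against 11.3, 92.6 and 79.1 CPM in WT Ly6Chi (edgeR adjusted p = 0.032). Of 17 genes of the kinases and factors that induce this response, 0 were called by number, against 0.0818% of all genes. An unadjusted p under 0.05 was found for 2 of the 17, against 12.6% of all genes. Their median log2 ratios were 0.31 and 0.25, against -0.01 and 0.00 over all genes. The ratio was positive for 16 of the 17 in number 2 over 1 and for 15 in number 3 over 1. Over all 18341 genes it was positive for 9102 and 9221. Mapk14, which encodes the kinase p38 alpha, was at 471 to 599 CPM in KO Ly6Clo, 568 to 617 CPM in WT Ly6Clo, against 435 to 559 CPM in WT Ly6Chi.

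Some of the 11 lists of cell type markers were also lowest in the libraries numbered 1, and others were not. The sums of 5 T cell markers were 84.1 to 142 CPM in libraries numbered 2 and 3 and 25.9 to 75.8 CPM in those numbered 1. Those of 5 NK cell markers were 30.1 to 241 CPM and 8.24 to 40.2 CPM, and those of 5 B cell markers 37.9 to 131 CPM and 22.7 to 53.4 CPM. In all 3 groups the sums of T, NK and B cell markers, and that of the Ly6Clo markers, were lowest in number 1. This held in 2 groups for the neutrophil, conventional dendritic cell, platelet and erythroid lists. It held in 1 group for the Ly6Chi and red pulp macrophage lists and in 0 for the plasmacytoid dendritic cell list. In KO Ly6Clo the conventional dendritic cell sum was highest in number 1, at 394, 337 and 154 CPM in replicates 1, 2 and 3. No gene of the 11 marker lists was called by number. Those of 6 erythroid markers were 1.23, 7545 and 1418 CPM in KO Ly6Clo replicates 1, 2 and 3, 404, 3344 and 498 CPM in WT Ly6Clo, against 199, 226 and 133 CPM in WT Ly6Chi. They were lowest in number 1 and highest in number 2 of both Ly6Clo groups, and not lowest in number 1 of WT Ly6Chi. The erythroid marker Alas2 was at 0 in KO Ly6Clo replicate 1. Among the T, NK and B cell markers, Prf1 and Eomes were at 0 in KO Ly6Clo replicate 1 and Pax5 was at 0 in WT Ly6Chi replicate 1, and no other marker was at 0 in any library. All 5 T cell and all 5 NK cell markers, and 4 of 5 B cell markers, were lowest in number 1 in all 3 groups. The part of these markers in the result was not tested, and in bulk RNA fewer cells of a type and less RNA per cell cannot be told apart. The mitochondrial share of counts was 0.129 to 0.196% in KO Ly6Clo, 0.0700 to 0.116% in WT Ly6Clo and 0.155 to 0.351% in WT Ly6Chi, and it was highest in number 1 in both WT groups.

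The library numbers given with the files fall into 2 runs, with the Ly6Clo replicates 1 and 2 and WT Ly6Chi replicate 1 in the first. In WT Ly6Chi the run and the difference of number 1 from numbers 2 and 3 cannot be told apart, but in the Ly6Clo groups replicates 1 and 2 share a run. There Fos was at 1917 and 18.9 CPM in KO replicates 2 and 1, and at 3820.3 and 136 CPM in WT replicates 2 and 1. With group as a term, the run called 0 of the 32 genes and 0.0% of all 18341 by edgeR, with an unadjusted p under 0.05 for 0 immediate early, 1 heat shock and 716 genes in all (3.9%). DESeq2 called 17 genes by run, and without the filter on low counts edgeR called 213 (0.526%), of which 8 were immediate early genes.

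The comparison of KO Ly6Clo with WT Ly6Clo asked whether loss of the element changed these genes. None of the 32 was called, against 0.0709% of all genes (13 of 18341), and 0 had an unadjusted p under 0.05, against 6.16% of all genes. DESeq2 and limma-voom also called 0 of them, against 1.55% and 0.0872% of all genes. The median log2 fold change was -0.46 over the immediate early genes, with 17 of 24 negative, 0.07 over the heat shock genes and 0.03 over all genes. The direction over the immediate early genes depended on the libraries kept. Without WT Ly6Clo replicate 2, 23 of 24 were positive, with a median of 0.34 (0.06 over all genes). Without KO Ly6Clo replicate 1 the median was -0.06, with 14 of 24 negative. Both fits leave the numbers unbalanced between the groups. With the number as a block 18 of 24 were negative, with a median of -0.36. Without the 3 libraries numbered 1, a choice made after the data were seen, 17 were negative, with a median of -0.49. No member had groups that did not overlap, against 5.22% of all genes that were higher and 5.7% that were lower in KO Ly6Clo by that measure. Same-numbered KO and WT Ly6Clo libraries deviated together for numbers 1 and 2. For number 3 the correlation of deviations (0.121) was below that of WT replicate 2 with KO replicate 3 (0.126). The labels give no pairing, so the differences within each number are a description only. For Fos the difference of KO minus WT Ly6Clo was -2.78, -0.99 and -0.34 on the log2(CPM + 1) scale in numbers 1, 2 and 3. KO was below WT in every number for 9 of 24 immediate early genes (Fos, Fosl2, Atf3, Ier2, Dusp1, Btg2, Zfp36, Maff and Gadd45b), against 15.0% of all genes, and 0 of 8 heat shock genes. With the number as a block 0 of the 32 were called as well.

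Single values show how wide the errors were. The log2 fold change of Fos was -0.74 (SE 1.47), of Dusp1 -0.63 (SE 1.28), of Egr1 -1.58 (SE 2.14) and of Zfp36 -0.48 (SE 0.96). KO was above WT in every number for 2 of the 24 immediate early genes (Ier3 and Zfp36l1) and 1 of the 8 heat shock genes (Hspe1). That held for 2707 of all 18341 genes. Ier3, a gene linked to survival under stress, had 8.94, 29.2 and 39.4 CPM in KO Ly6Clo and 2.13, 18.2 and 14.8 CPM in WT Ly6Clo (a log2 difference of 1.14 with SE 0.75). Without WT Ly6Clo replicate 2, the highest library of its group for 22 of the 24 immediate early genes, the fold changes of Fos and Junb were positive, at 0.08 and 0.36, and Dusp1 was the 1 gene of the 24 that stayed negative.

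Between the monocyte subsets of the wild type, 0 of the 32 genes were called by edgeR in WT Ly6Clo against WT Ly6Chi, where 3.51% of all genes (643) were. An unadjusted p under 0.05 was found for 3 immediate early and 4 heat shock genes, 7 of 32 together, against 18.2% of all genes. DESeq2 called 4 of the 32 (Zfp36l1, Dusp5, Hspa1b and Hspe1), against 11.5% of all genes, and limma-voom 0, against 4.38%. These shares over the members are near those over all genes. With the number as a block edgeR called 5 of the 32 (Zfp36l1, Dusp5, Fosb, Dusp2 and Hspe1), against 5.17% of all genes (949). Medians were above 0, at a log2 fold change of 0.76 over the immediate early genes (18 of 24 positive), 0.53 over the heat shock genes (7 of 8) and -0.00 over all genes. The groups did not overlap for 7 genes that were higher in WT Ly6Clo (Zfp36l1, Dusp5, Ier5, Maff, Hspa1b, Dnajb1 and Hsp90aa1), against 13.6% of all genes, and for 1 that was lower, Hspe1, against 14.7%.

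**Figure D4:**
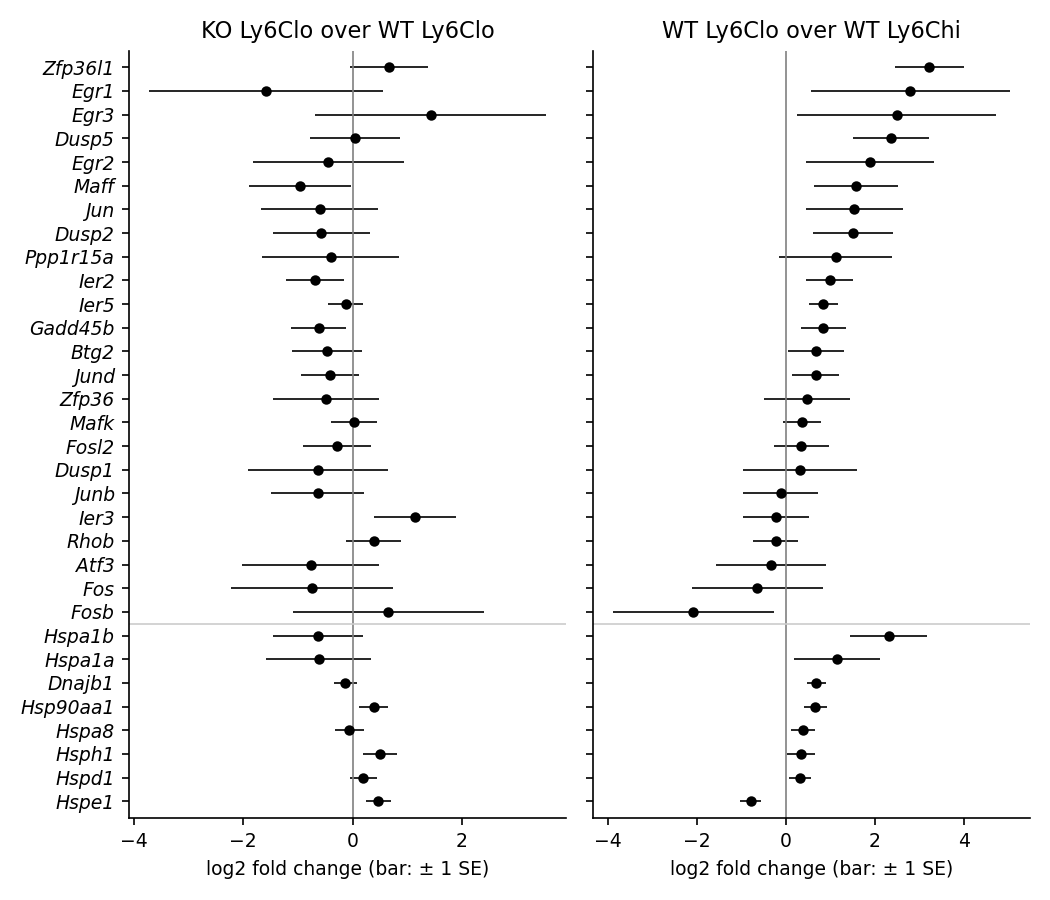
Log2 fold change with bars of ± 1 standard error for the 32 genes tested, in KO Ly6Clo over WT Ly6Clo (left) and WT Ly6Clo over WT Ly6Chi (right), with heat shock genes below the grey line. On the left 17 of the 24 immediate early genes lie below 0 and none passed the test, and on the right Zfp36l1 stands highest at 3.23.

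Zfp36l1 had the largest fold change of the 32 genes in WT Ly6Clo against WT Ly6Chi. It encodes a relative of tristetraprolin that also directs mRNA decay (ENSMUSG00000021127, chromosome 12, 80107754 to 80113013, minus strand). Its level was 65.5, 378 and 224 CPM in KO Ly6Clo, 44.9, 229 and 146 CPM in WT Ly6Clo, against 7.17, 15.4 and 22.3 CPM in WT Ly6Chi. Every Ly6Clo library was above every Ly6Chi library, and within each group number 1 was the lowest. The log2 fold change was 3.23 (SE 0.77) in WT Ly6Clo against WT Ly6Chi, which missed the threshold (edgeR adjusted p = 0.058, 5.7e-05 to 0.18 over 17 alternatives). It passed in KO Ly6Clo against WT Ly6Chi at 3.89 (SE 0.80, edgeR adjusted p = 0.028, 3.3e-07 to 0.12 over 17 alternatives). That was the 1 call among the 32 genes, against 4.52% of all genes, in a comparison in which genotype and subset differ together.

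The call of Zfp36l1 in KO Ly6Clo against WT Ly6Chi was lost without WT Ly6Chi replicate 1, 2 or 3 (edgeR adjusted p = 0.11, 0.12 and 0.076), WT Ly6Clo replicate 3 (0.057), or KO Ly6Clo replicate 2 or 3 (0.078 and 0.073), and by limma-voom (0.075). With the 3 libraries numbered 1 left out, a choice made after the data were seen, Zfp36l1 and Dusp5 were called in both comparisons with WT Ly6Chi, where 2.49% of all genes were called for WT Ly6Clo and 3.8% for KO Ly6Clo. Dusp5 was then higher by 2.20 in WT Ly6Clo and by 2.37 in KO Ly6Clo on the log2 scale (edgeR adjusted p = 0.013 and 0.0075). With all libraries these values were 2.37 (SE 0.86) and 2.41 (SE 0.87), with an edgeR adjusted p of 0.19 in each. Fos and Hsp90aa1 were also called in KO Ly6Clo against WT Ly6Chi without number 1, Fos lower at -1.33 and Hsp90aa1 higher at 1.12 (edgeR adjusted p = 0.0497 and 0.049).

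In KO Ly6Clo against WT Ly6Chi the groups did not overlap for 5 genes that were higher (Zfp36l1, Ier5, Hsph1, Dnajb1 and Hsp90aa1), against 11.3% of all genes, and for Hspe1, which was lower, against 11.7%. Both comparisons with WT Ly6Chi share the same 3 Ly6Chi libraries.

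**Figure D5:**
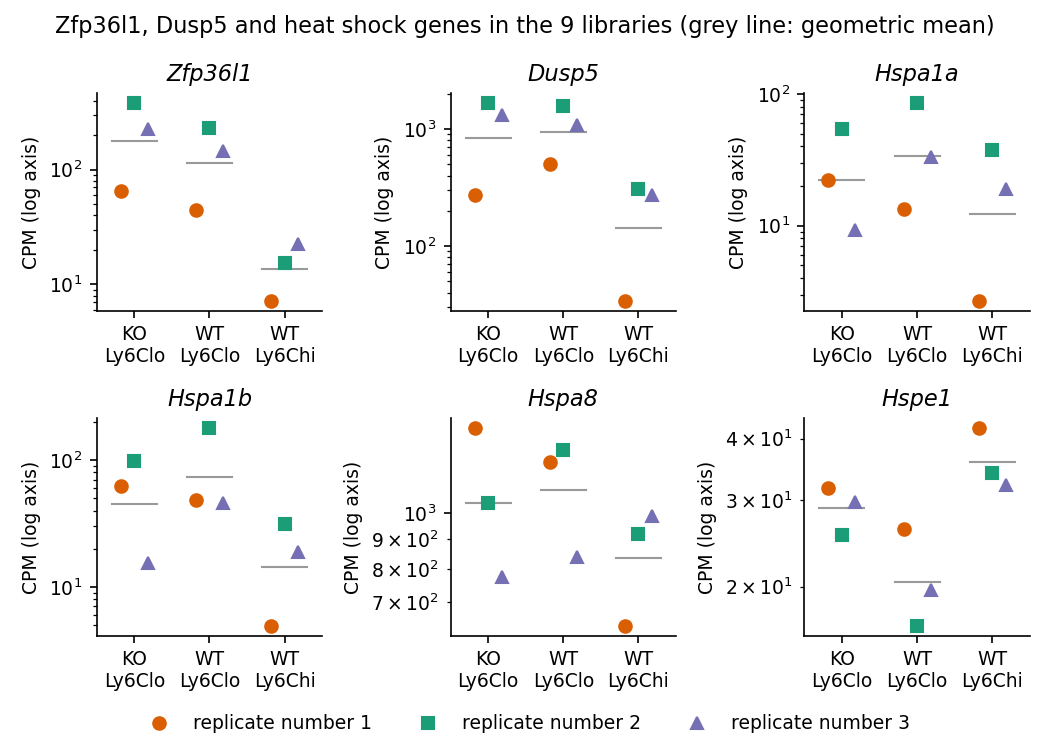
Level in CPM, on a log axis that differs between panels, of Zfp36l1, Dusp5 and 4 heat shock genes in the 9 libraries, with a grey line at each geometric mean and symbols by replicate number. Zfp36l1 lies between 44.9 and 378 CPM in Ly6Clo libraries of both genotypes and between 7.17 and 22.3 CPM in WT Ly6Chi libraries.

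Heat shock genes varied less within groups than the immediate early genes. The highest library was a median of 1.82, 1.55 and 1.61 times the lowest in KO Ly6Clo, WT Ly6Clo and WT Ly6Chi, against 5.20, 6.80 and 4.65 times for the immediate early genes and 1.79, 1.59 and 1.71 times for all genes tested. These medians leave out genes with a library at 3 counts or fewer. The inducible HSP70 genes Hspa1a and Hspa1b were the most variable. Hspa1a had 22.4, 53.8 and 9.23 CPM in KO Ly6Clo, 13.5, 84.8 and 33.1 CPM in WT Ly6Clo, against 2.68, 37.3 and 19.0 CPM in WT Ly6Chi. Hspa1b had 62.2, 98.4 and 15.3 CPM in KO Ly6Clo, 48.4, 179 and 45.7 CPM in WT Ly6Clo, against 4.92, 31.3 and 18.8 CPM in WT Ly6Chi. Both were highest in number 2 of every group, and in KO Ly6Clo both were lowest in number 3. Their split is uncertain, since 38.1% of the 150-base stretches of the Hspa1a transcript and 40.5% of those of Hspa1b occur in the other.

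None of the constitutive and mitochondrial chaperones was called by number. Hspa8, the constitutive HSP70 and the most abundant of the 9 by length (698 TPM, median), had 1404, 1040.3 and 773 CPM in KO Ly6Clo, 1225, 1287 and 839 CPM in WT Ly6Clo, against 637, 921 and 989 CPM in WT Ly6Chi. Dnajb1, the HSP40 partner of HSP70, had 144, 151 and 127 CPM in KO Ly6Clo, 146, 189.6 and 126 CPM in WT Ly6Clo, against 71.5, 108 and 108 CPM in WT Ly6Chi. All 6 Ly6Clo libraries were above the 3 Ly6Chi libraries (log2 fold change 0.68, SE 0.22 in WT, edgeR adjusted p = 0.14). Hsp90aa1, the inducible HSP90, had 96.2, 176 and 154 CPM in KO Ly6Clo, 121, 109 and 95.9 CPM in WT Ly6Clo, against 53.4, 63.2 and 88.6 CPM in WT Ly6Chi. Hsph1, which exchanges the nucleotide of HSP70, ran from 49.3 to 103 CPM in KO Ly6Clo, 34.1 to 62.6 CPM in WT Ly6Clo, against 35.6 to 41.7 CPM in WT Ly6Chi.

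The mitochondrial chaperonin genes Hspd1 (HSP60) and Hspe1 (HSP10) lie on opposite strands of chromosome 1 and share a promoter region. Their annotated starts overlap (Hspd1 from 55077835 to 55088243, Hspe1 from 55088132 to 55091307), so reads from the overlap cannot be assigned without strand. Hspd1 had 86.2, 120.2 and 133 CPM in KO Ly6Clo, 99.5, 97.0 and 99.6 CPM in WT Ly6Clo, against 86.1, 52.9 and 97.7 CPM in WT Ly6Chi. Hspe1 had 31.7, 25.4 and 29.8 CPM in KO Ly6Clo, 26.2, 16.6 and 19.7 CPM in WT Ly6Clo, against 42.0, 34.1 and 32.2 CPM in WT Ly6Chi. Hspe1 was lower in every Ly6Clo library than in any Ly6Chi library (log2 fold change -0.79, SE 0.23 in WT, edgeR adjusted p = 0.10), whereas the groups of Hspd1 overlapped.

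Other chaperones and inducing kinases, from lists of related genes, gave these counts. Of 33 chaperones and co-chaperones tested outside the 9 genes, 2 were called as higher and 0 as lower in WT Ly6Clo against WT Ly6Chi. The same counts held in KO Ly6Clo against WT Ly6Chi, where the shares of all genes called were 3.51% and 4.52% in this order. The 2 were Stip1, which links HSP70 to HSP90, and Hsp90ab1, the constitutive HSP90. Stip1 had 183, 160.5 and 159.7 CPM in KO Ly6Clo, 195, 174 and 134 CPM in WT Ly6Clo, against 87.5, 100.1 and 89.6 CPM in WT Ly6Chi (log2 fold change 0.86, SE 0.17 in WT, edgeR adjusted p = 0.031). Hsp90ab1 had 622, 841 and 653 CPM in KO Ly6Clo, 761, 719 and 633 CPM in WT Ly6Clo, against 374, 409.6 and 436 CPM in WT Ly6Chi (log2 fold change 0.79, SE 0.16 in WT, edgeR adjusted p = 0.033). In these 2 genes every Ly6Clo library was above every Ly6Chi library. The replicate number called 0 of the 33, against 0.0818% of all genes. Its unadjusted p was under 0.05 for 8 of the 33, against 12.6% of all genes. The median log2 ratios over number 1 were -0.06 and -0.04 for the 33.

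Of the 17 genes of the inducing pathway, 2 were called as higher and 0 as lower in both comparisons with WT Ly6Chi. Of all genes 3.51% were called for WT Ly6Clo and 4.52% for KO Ly6Clo. Map3k8, the kinase TPL2 that activates ERK below Toll-like receptors, had 168 to 194 CPM in KO Ly6Clo, 181 to 298 CPM in WT Ly6Clo, against 73.8 to 107 CPM in WT Ly6Chi (log2 fold change 1.30, SE 0.22 in WT, edgeR adjusted p = 0.017). Map2k1, the kinase MEK1, had 527 to 692 CPM in KO Ly6Clo, 586 to 664 CPM in WT Ly6Clo, against 258 to 374 CPM in WT Ly6Chi (log2 fold change 0.88, SE 0.19 in WT, edgeR adjusted p = 0.042). Of the 23 other immediate early genes tested, 0 were called between any pair of groups. Among them Nr4a1, a nuclear receptor required for Ly6Clo monocytes, had 1638, 6262 and 5592 CPM in KO Ly6Clo, 2458, 11134 and 5537 CPM in WT Ly6Clo, against 322, 2627 and 2785 CPM in WT Ly6Chi. In KO Ly6Clo against WT Ly6Clo 0 genes of these 3 lists were called by edgeR, and 1 other immediate early gene and 1 chaperone had an unadjusted p under 0.05.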

How the data were processed

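RNA of sorted monocytes was sequenced as paired reads of 150 bases, per the labels' protocols. The authors deposited whole-number counts per gene ID with CPM, FPKM and TPM beside them. TPM, deposited by the authors, equalled the values recomputed from counts and lengths and was used only to compare genes. Among the tools in the submitters' processing notes are STAR (2.5.1a), featureCounts (1.4.6-p5) of Subread and Salmon (0.8.2), with the build GRCm38. The sources used here do not state how strand and reads shared by genes were handled. Symbols came from GENCODE M21 for 99.38% of IDs.

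Counts were fitted in R 4.3.3 with edgeR 4.0.16 (filterByExpr, minimum count 10; TMM; glmQLFit and glmQLFTest over all 9 libraries; common dispersion 0.448; Benjamini-Hochberg over 18341 genes). Group comparisons used 1 term per group. Replicate number and the run of library numbers were tested with group as a term. The fits were tested on simulated data. No pair of libraries in a group looked like 1 library deposited again (chi-square per gene at least 49.1). Alternatives were RLE scaling, no filter, DESeq2 1.42.0, limma-voom (limma 3.58.1), 6 libraries, the replicate block, a run term and each library left out. Correlations of deviations from group means between same-numbered KO and WT Ly6Clo libraries were 0.463, 0.351 and 0.121. The highest between different numbers was 0.126, for WT replicate 2 and KO replicate 3, so only numbers 1 and 2 stood out. A pairing of these groups by number is thus not established by the data, and the labels do not give it.

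The genes, lists and tests were chosen with earlier results of these data known. Named are all 33 genes, up to 4 called genes per related list with the smallest adjusted p (or 2 of the highest level, of which the text gives those it uses), and the genes most correlated with each family, of which 1 is not reported here. Promoters came from RefSeq (GRCm38.p6).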

Additional observations from a re-analysis of the deposited data

How the results depend on the processing

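No member was called between KO and WT Ly6Clo under any of the 17 alternatives, the replicate block among them. In WT Ly6Clo against WT Ly6Chi 1 member was called without the filter, against 1.81% of all genes. With the replicate block 5 were called (Hspe1, Dusp2, Fosb, Zfp36l1 and Dusp5), against 5.17% (949). DESeq2 called 4, against 11.5%, and a fit of the 6 libraries called 1, against 5.01%. Without the 3 libraries numbered 1, 2 were called, against 2.49%, and 0 to 1 when 1 library was left out. In KO Ly6Clo against WT Ly6Chi 2 were called with the replicate block (Zfp36l1 and Dusp5), against 5.33% of all genes (977). DESeq2 called 3, against 11.2%, and limma-voom called 0, against 4.95%. Without the libraries numbered 1, 4 were called, against 3.8%, and 0 to 2 when 1 library was left out. The labels pair neither of these comparisons by number. Same-number correlations were 0.353, 0.142 and 0.068, and 0.326, 0.236 and -0.007. The highest between different numbers were 0.153 and 0.248, so only number 1 stood out in each. By replicate number 17 were called without the filter, 22 by DESeq2 and 10 by limma-voom, against 0.526%, 10.5% and 0.305% of all genes. In the 6 Ly6Clo libraries 0 were called, and 0 to 5 when 1 library was left out. By the run of library numbers 8 were called without the filter, against 0.526% of all genes. Over all genes the calls in KO against WT Ly6Clo were 54 without the filter, 277 by DESeq2, 0 with 6 libraries, 2 without the libraries numbered 1 and 2 to 21 when 1 library was left out. They were 1968 and 1950 by DESeq2 in the comparisons of WT and of KO Ly6Clo with WT Ly6Chi, and 239 to 847 and 379 to 818 when 1 was left out. By number they were 213 without the filter, 1508 by DESeq2, 56 by limma-voom, 0 in the 6 Ly6Clo libraries and 0 to 10 when 1 was left out. By run they were 213 without the filter and 17 by DESeq2. The median fold change of the 24 immediate early genes in KO against WT Ly6Clo was -0.96 to 0.34 with 1 library left out, and it was positive without WT Ly6Clo replicate 2 alone. The fold changes of Fos and Junb in KO against WT Ly6Clo turned positive, to 0.078 and 0.36, without WT Ly6Clo replicate 2, and their lowest values with 1 library left out were -1.31 and -1.14. The causes were not tested. Of the 33 genes, a count of 3 or fewer was found for Hspb1 in 8 libraries, Egr3 in 3 and Egr1 in KO Ly6Clo replicate 1, where depth limits the value.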

Other observations

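Genes other than the 33 whose level followed the immediate early genes were ranked by Pearson's r over the 9 libraries, between each gene's deviation from its group mean and the mean deviation of the 24 genes, on the log2(CPM + 1) scale. The 9 points share depth and replicate number with both measures, so the values are descriptions. The highest among 9065 genes with a mean of at least 5 CPM were Kdm6b, a histone demethylase (0.995), Tnfaip3, the NF-kappaB inhibitor A20 and 1 of the other immediate early genes listed (0.994), Rin3 (0.994), Ccrl2 (0.993) and Tyk2, a Janus kinase (0.991). Unkl (0.990), Tada2b (0.990), Nfil3 (0.989) and Plk2 (0.988) were also high. Tnfaip3 had 55.6, 599 and 304 CPM in KO Ly6Clo, 72.3, 802 and 279.9 CPM in WT Ly6Clo, against 35.2, 313 and 373 CPM in WT Ly6Chi. Of the 15 genes called by number, 10 were not among the 33. They were Rgs1, Ptgs2, Taf4, F630028O10Rik, Ccrl2, Osm, Per1, Kdm6b, Nfil3 and Pim1, and of all 15, 14 were higher and 1 (F630028O10Rik) was lower in numbers 2 and 3 than in number 1.

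The genes most like the heat shock mean were Tmem64 (0.993), Mta3 (0.991), Ctdnep1 (0.978), Slc20a2 (0.975) and Luzp1 (0.974). Tmem64 had 42.2, 45.3 and 27.4 CPM in KO Ly6Clo, 18.9, 30.1 and 17.7 CPM in WT Ly6Clo, against 15.7, 28.1 and 28.1 CPM in WT Ly6Chi. None of these 5 was called by number.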
